A study of Mus musculus with 20 samples.

Results

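The genes described are 10 members of the Notch pathway: the receptors *Notch1*, *Notch2*, *Notch3* and *Notch4*, the ligands *Dll1*, *Dll4*, *Jag1* and *Jag2*, and the target genes *Hes1* and *Hes5*. They were taken by name, as 10 of the 22367 protein-coding genes annotated on the mouse genome NCBIM37 (mm9), by a rule that uses no measured value. Each gene was studied as a window that holds the gene body and 5000 bp on each side, 446543 bp in all 10 windows together. In each window the bases lying under peaks of 5-formylcytosine (5fC) were counted and given as a percent of the window, so that genes of different length can be set side by side.

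Tissue was taken from E11.5 mouse embryos, either wild-type (WT) or *Tdg* null, which were littermates from intercrosses of heterozygotes. The *Tdg* null allele lacks the coding sequence of the catalytic domain of thymine DNA glycosylase (TDG), the enzyme that excises 5fC, with a neomycin resistance cassette in its place, and all tissues of these embryos carry it. The hindbrain libraries are 4 WT and 4 *Tdg* null, with 1 embryo of each genotype from litters A, O, Q and Z. Heart, liver and carcass (the rest of the embryo after dissection) came from 2 WT and 2 other *Tdg* null embryos, which form 2 litter pairs, so values of these 3 tissues come from shared embryos. In the pull-down, 5fC was tagged with a cleavable biotin probe, the tagged fragments were captured on streptavidin beads, and the released DNA was sequenced. Peaks carry a start and an end and no height, so a longer stretch under peaks does not measure how much 5fC it holds.

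Notch signalling passes between touching cells. A Delta or Jagged ligand on one cell binds a Notch receptor on its neighbour, the receptor is cut by ADAM proteases and then by gamma-secretase, and its intracellular domain enters the nucleus, where it joins the DNA-binding protein RBPJ and turns on targets such as the Hes genes. HES1 and HES5 are repressors that keep neural progenitors from differentiating, while *Notch1*, *Notch4*, *Dll4* and *Jag1* are known for their roles in blood vessels and the heart, and *Notch3* for its role in vascular smooth muscle. 5fC is made from methylated cytosine by TET enzymes and is found mostly at CpG sites.

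*Tdg* null libraries held peaks over 2.68% to 8.09% of the genome, against 0.0349% to 0.939% in WT libraries. Within a genotype the libraries also differed, and the *Tdg* null heart libraries covered 8.09% and 3.64% of the genome. The 2nd *Tdg* null liver library, set apart in the study for poor quality, held 228 peaks in all and 0 peaks in the 10 windows, and enters no group value below. *Tdg* null liver is therefore 1 library without a replicate. The labelled tissues cannot be checked against marker genes here, because the files hold DNA peaks and no expression. Each tissue is a mixture, and more cells that carry 5fC at a site cannot be told apart from more 5fC per cell.

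In the *Tdg* null hindbrain the 10 windows ranged from 1.24% (*Dll4*) to 26.2% (*Hes5*) covered on average, with a median of 10.6%, against a median of 2.57% over all protein-coding windows. The order in *Tdg* null hindbrain, by mean percent covered over 4 libraries, was *Hes5* (26.2% ± 6.73 SD), *Jag2* (16.3% ± 4.56), *Jag1* (13.9% ± 1.43), *Notch1* (13.1% ± 1.53), *Notch2* (11.03% ± 3.64), *Dll1* (10.1% ± 3.06), *Notch4* (5.84% ± 2.32), *Notch3* (5.75% ± 1.88), *Hes1* (1.68% ± 1.27) and *Dll4* (1.24% ± 1.43). Neighbours in this order overlapped in their library values, except *Notch3* and *Hes1*. The members' medians were also above those of all windows in *Tdg* null heart (15.7% against 5.06%), carcass (17.5% against 3.53%) and liver (4.79% against 1.23%).

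**Figure D1:**
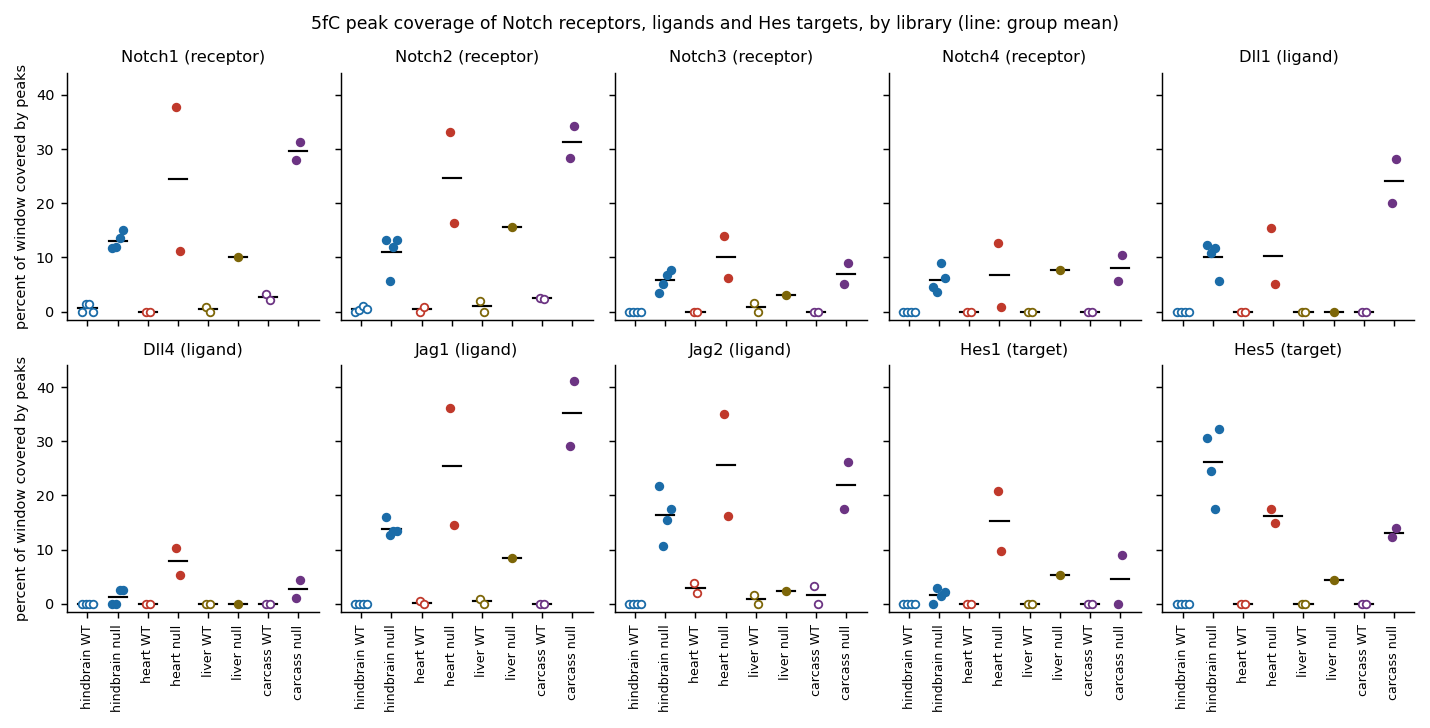
Percent of each window (gene body and 5000 bp on each side) covered by 5fC peaks, 1 panel a gene, 1 point a library, with WT open, *Tdg* null filled and a line at the group mean. *Hes5* was highest in *Tdg* null hindbrain, and *Hes1* and *Dll4* had their highest values in *Tdg* null heart.

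The first comparison asked how far loss of TDG changed peak coverage of these genes in hindbrain. In 8 of the 10 windows all 4 *Tdg* null hindbrains lay above all 4 WT hindbrains. The difference in mean had a two-sided exact permutation p of 0.0286 for each of the 8, the smallest that 4 against 4 libraries allow, and 0.0408 after Benjamini-Hochberg adjustment over the 17588 windows tested. The background was high: 12311 of those windows (70.0%) showed the same separation, so 8 of 10 is close to what windows of any gene showed. The median difference was 10.4 percentage points over the members and 3.67 over all windows tested. When each value was divided by the percent of the genome covered in its library, *Notch1* and *Notch2*, the members with WT hindbrain peaks, no longer separated. On that scale 6 of 10 members did, beside 8102 of the 17588 windows (46.1%), and the adjusted p of the 6 was 0.0606. Leaving out any 1 WT hindbrain kept 8 of 10 members separated but raised their adjusted p to between 0.0507 and 0.0831, and with littermates as pairs the exact permutation p of the 8 was 0.125, the smallest that 4 pairs allow. *Notch2* then had a lower mean in *Tdg* null than in WT hindbrain, by -0.65 on that ratio scale.

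Among the receptors, the *Notch1* window (chr2:26308423-26377183, gene on the minus strand) was covered at 0%, 1.45%, 1.45% and 0% in WT hindbrain and at 11.8%, 11.9%, 13.7% and 15.0% in *Tdg* null hindbrain. *Notch1* encodes the receptor needed for progenitor maintenance and vessel growth. Its *Tdg* null heart values were 37.8% and 11.2%, its *Tdg* null carcass values 28.1% and 31.3%, and its *Tdg* null liver value was 10.03%. Every *Tdg* null library of *Notch1* thus lay above every WT library, of which the highest was a carcass at 3.20%.

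*Notch2*, the longest gene of the set at 136830 bp (window chr3:97812461-97959290), was covered at 0%, 0.272%, 1.02% and 0.409% in WT hindbrain and at 13.2%, 5.65%, 12.0% and 13.3% in *Tdg* null hindbrain. The library of litter O stood below the other three *Tdg* null hindbrains. In *Tdg* null embryos *Notch2* reached 33.1% and 16.3% in heart, 28.3% and 34.3% in carcass and 15.6% in liver, where it was the highest of the 10 members. *Notch2* encodes a receptor broadly present in the embryo.

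*Notch3* (window chr17:32252765-32308825) had 0% in all 4 WT hindbrains and 3.39%, 5.17%, 6.78% and 7.67% in *Tdg* null hindbrains. *Notch4* (window chr17:34696213-34730448), an endothelial receptor, had 0% in all 10 WT libraries of the 4 tissues, and 4.52%, 3.65%, 8.90% and 6.27% in *Tdg* null hindbrains. In each *Tdg* null hindbrain both were less covered than *Notch1* and *Notch2*, and *Notch3* and *Notch2* came closest in litter O, at 5.17% and 5.65%. Of the *Notch4* window 10.8% is also part of *Gpsm3* and *Pbx2*, and a region under peaks of all 4 *Tdg* null hindbrains at its downstream edge lies in *Pbx2*.

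One intronic stretch of *Notch1* under peaks of all 4 *Tdg* null hindbrains is shown because its centre held the only match, among the 17 stretches chosen by rule, to GTGGGAA (either strand), a core that RBPJ is known to bind. The stretch (chr2:26363501-26364500) is wholly intronic, and the 300 bases at its centre, chr2:26363851-26364150, are given from the plus strand of NCBIM37 with CpG in capitals.
*Notch1* intron: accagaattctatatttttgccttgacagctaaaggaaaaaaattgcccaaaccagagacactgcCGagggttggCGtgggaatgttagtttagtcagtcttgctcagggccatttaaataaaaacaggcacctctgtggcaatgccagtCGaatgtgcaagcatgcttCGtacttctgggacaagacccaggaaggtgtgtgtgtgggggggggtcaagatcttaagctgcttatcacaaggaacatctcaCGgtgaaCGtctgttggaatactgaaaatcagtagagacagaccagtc
These letters hold 6 CpG. Of 59208 stretches of 300 bases under all 4 *Tdg* null hindbrains genome-wide, 7.72% held the motif, against 5.14% of 25582 stretches of the same length spaced evenly over the genome, and 1 of 17 is close to both. The median number of CpG was 6 in the 17 stretches chosen by rule, 6 in the 59208 and 2 in the evenly spaced ones.

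Among the ligands, *Jag2* and *Jag1* were the most covered in *Tdg* null hindbrain. *Jag2* (window chr12:114141801-114172706, minus strand) had 0% in all 4 WT hindbrains and 21.7%, 10.7%, 15.5% and 17.5% in *Tdg* null hindbrains, and reached 34.9% and 16.2% in *Tdg* null heart and 17.5% and 26.2% in *Tdg* null carcass. *Jag1* (window chr2:136902192-136947380, minus strand), the ligand required for heart and vessel development, had 0% in all 4 WT hindbrains and 15.9%, 12.6%, 13.5% and 13.5% in *Tdg* null hindbrains. Its coverage in *Tdg* null carcass, 29.2% and 41.2%, was the highest group value of any member, and 99.2% of all protein-coding windows lay below its mean there.

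*Dll1* (window chr17:15499318-15518836, minus strand), the Delta ligand of neural progenitors and somites, had 0% in all 10 WT libraries. It reached 12.3%, 10.8%, 11.8% and 5.64% in *Tdg* null hindbrains, 15.4% and 5.12% in *Tdg* null heart and 19.98% and 28.2% in *Tdg* null carcass. The *Tdg* null liver held no *Dll1* peak, and *Dll4* was the only other member at 0% there. *Dll4* (window chr2:119146520-119166698), the Delta ligand of arterial endothelium, was also at 0% in all WT libraries, and in *Tdg* null hindbrain it was at 0%, 0%, 2.48% and 2.48%, so that the genotypes overlapped (two-sided exact permutation p = 0.429, adjusted 0.474).

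A stretch upstream of *Jag2* is shown because peaks of all 4 *Tdg* null hindbrains, both *Tdg* null hearts and both *Tdg* null carcasses met there. It spans chr12:114170401-114171400, with its centre at -3194 bp from the start of the gene (negative is upstream), and the 300 bases at its centre, chr12:114170751-114171050, on the plus strand, are given with CpG in capitals.
*Jag2* upstream: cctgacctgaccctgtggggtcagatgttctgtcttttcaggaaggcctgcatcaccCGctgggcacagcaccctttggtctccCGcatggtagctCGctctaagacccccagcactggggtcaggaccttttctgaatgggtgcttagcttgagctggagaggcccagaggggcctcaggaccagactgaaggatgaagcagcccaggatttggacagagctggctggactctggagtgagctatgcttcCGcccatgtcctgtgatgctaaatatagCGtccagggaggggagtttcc
A peak of 1 WT carcass library, chr12:114170701-114171200, lay within this *Jag2* stretch and covered all the bases shown. At the *Dll4* window's upstream edge lay a stretch of the opposite kind, chr2:119146520-119147500, centred at -4510 bp, under peaks of both *Tdg* null hearts and of no other library inside the window. The window edge cuts both peaks, so the extent and centre given are those of the part inside. The central 300 bases of that part, chr2:119146861-119147160, plus strand, are shown to set the sites with and without hindbrain peaks side by side.
*Dll4* upstream: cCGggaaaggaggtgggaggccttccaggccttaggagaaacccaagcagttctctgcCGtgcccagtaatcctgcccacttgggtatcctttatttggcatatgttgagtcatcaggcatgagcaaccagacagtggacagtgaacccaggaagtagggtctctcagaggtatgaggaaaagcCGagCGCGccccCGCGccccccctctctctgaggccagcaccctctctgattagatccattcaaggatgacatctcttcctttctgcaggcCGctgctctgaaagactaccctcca
The *Dll4* stretch held 8 CpG in these 300 bases and the *Jag2* stretch 5.

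The targets *Hes5* and *Hes1* encode related repressors and had unlike patterns over the tissues. *Hes5* (chr4:154335032-154336480, window chr4:154330032-154341480) had 0% in all 10 WT libraries and 30.6%, 24.5%, 17.5% and 32.3% in *Tdg* null hindbrains. In *Tdg* null embryos it had 17.5% and 14.8% in heart, 12.2% and 14.0% in carcass and 4.37% in liver. The lowest hindbrain and the higher heart had the same value, and the other three hindbrains lay above every other tissue. Of all protein-coding windows, 99.9% lay below its *Tdg* null hindbrain mean, against 83.9% in heart and 84.1% in carcass.

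*Hes1* (chr16:30064470-30067882, window chr16:30059470-30072882) was likewise at 0% in all 10 WT libraries. In *Tdg* null hindbrain it had 0%, 2.98%, 1.49% and 2.24%, which overlapped WT through the library of litter A (two-sided exact permutation p = 0.143, adjusted 0.173). Without that library, all *Tdg* null hindbrains lay above WT for *Hes1*, and 9 of the 10 members separated, beside 12875 of 17108 windows tested. In *Tdg* null heart *Hes1* had 20.9% and 9.69%, in carcass 0% and 8.95%, and in liver 5.22%. *Hes1* had the most CpG per kb of window of the 10 members (38.5) and *Hes5* the second most (32.8), so the 2 windows with the densest CpG held the highest and the second lowest coverage in *Tdg* null hindbrain.

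For both Hes genes the peaks lay outside the gene start. *Hes5* had 3 regions under peaks: 1 upstream, centred at -3582 bp, 1 at its 3′ end and just beyond, and 1 farther downstream inside the gene *Pank4*, which takes up 28.4% of the window. The upstream and the 3′ regions each held peaks of all 4 *Tdg* null hindbrains, of both *Tdg* null carcasses and of 1 of 2 *Tdg* null hearts, the upstream one also of *Tdg* null liver, and the *Pank4* region those of both *Tdg* null hearts and 1 *Tdg* null hindbrain. Only part of the 3′ region lies in the gene body, and with the gene body alone, 1449 bp, *Hes5* no longer separated between the genotypes, since the library of litter Q had no peak in it. *Hes1* had 3 regions as well: 2 upstream, with peaks of *Tdg* null heart, carcass and liver and of no hindbrain, and 1 of 400 bp downstream, with peaks of 3 *Tdg* null hindbrains and of no other library.

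The longest stretches of the *Hes5* and *Hes1* upstream regions are shown to set a stretch shared by tissues beside a stretch without hindbrain peaks. In *Hes5*, chr4:154331201-154332100 lay under peaks of all 4 *Tdg* null hindbrains, with its centre at -3382 bp. Peaks of both *Tdg* null carcasses, the 2nd *Tdg* null heart and *Tdg* null liver also lay over it, in whole or in part. In *Hes1*, chr16:30060301-30061600 lay under peaks of both *Tdg* null hearts and of no *Tdg* null hindbrain, with its centre at -4476 bp from the start of the coding transcript. The central 300 bases, chr4:154331501-154331800 and chr16:30060801-30061100, are given on the plus strand with CpG in capitals.
*Hes5* upstream: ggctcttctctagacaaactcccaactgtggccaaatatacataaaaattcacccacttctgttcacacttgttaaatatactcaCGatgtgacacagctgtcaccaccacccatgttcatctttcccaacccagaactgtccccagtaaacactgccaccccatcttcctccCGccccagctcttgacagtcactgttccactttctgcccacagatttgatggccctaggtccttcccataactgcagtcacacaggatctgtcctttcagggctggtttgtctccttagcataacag
*Hes1* upstream: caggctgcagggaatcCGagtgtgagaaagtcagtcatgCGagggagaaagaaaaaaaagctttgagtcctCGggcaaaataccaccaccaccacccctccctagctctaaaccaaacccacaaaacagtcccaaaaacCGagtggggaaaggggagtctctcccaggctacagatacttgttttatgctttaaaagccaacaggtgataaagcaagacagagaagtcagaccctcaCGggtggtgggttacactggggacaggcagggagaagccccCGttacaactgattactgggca
They held 2 CpG in *Hes5* and 6 in *Hes1*, and neither held GTGGGAA on either strand.

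**Figure D2:**
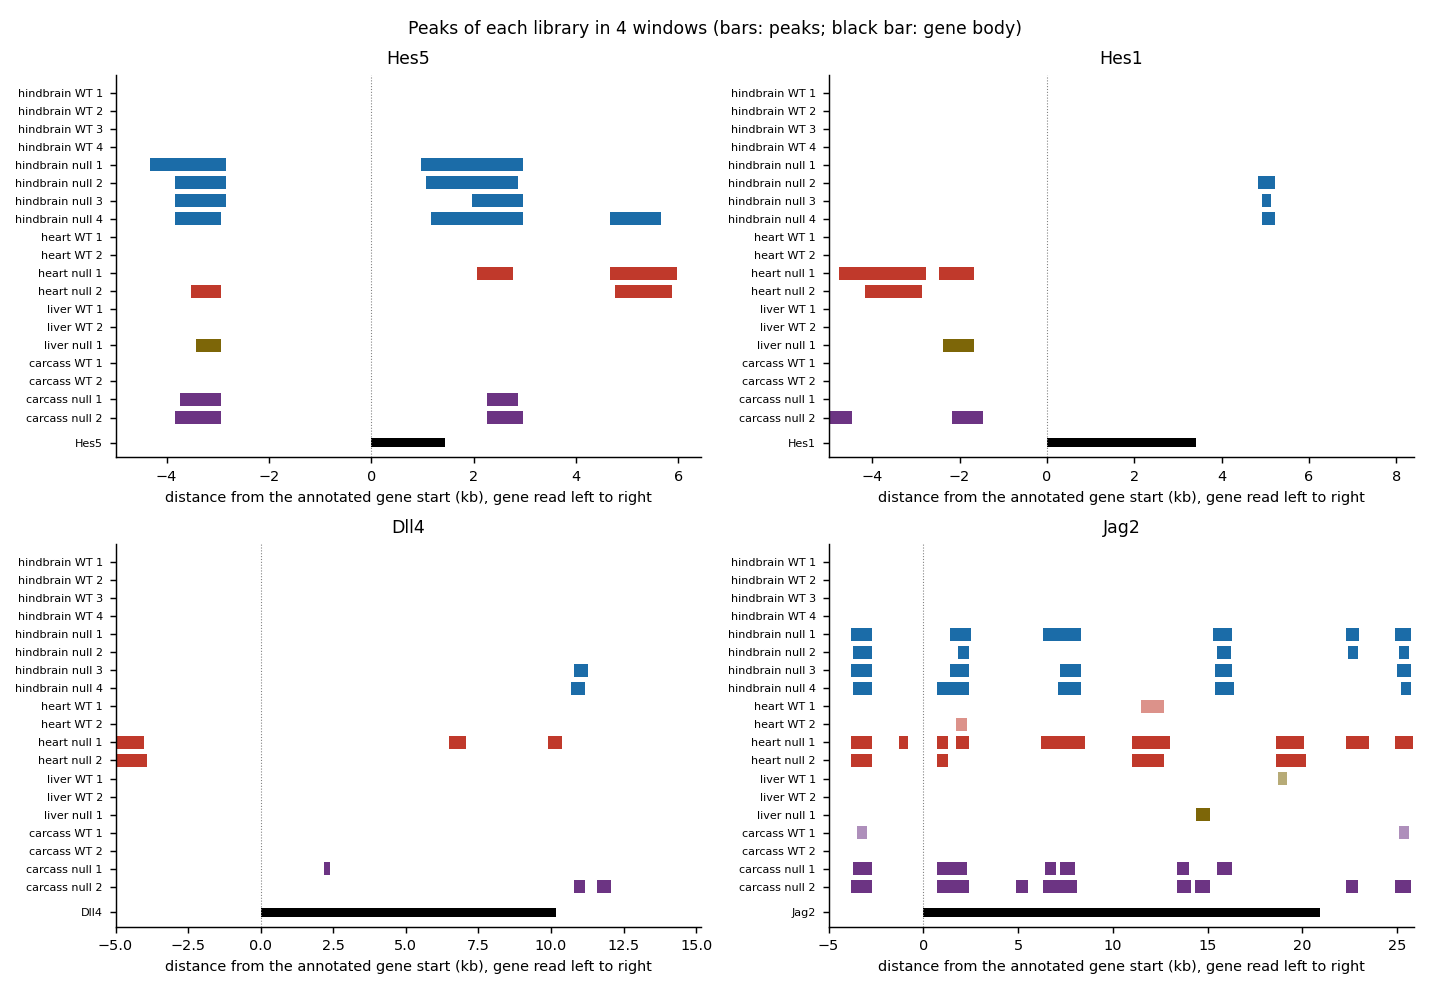
Peaks of the 19 libraries (rows; WT in paler colour) along 4 windows, by distance in kb from the annotated gene start, with the gene body in black. At *Hes5* the hindbrain peaks flank the gene, at *Hes1* the upstream peaks come from *Tdg* null heart, liver and carcass and the downstream ones from 3 *Tdg* null hindbrains, at *Dll4* the upstream edge holds both *Tdg* null hearts alone, and at *Jag2* an upstream peak recurs across *Tdg* null hindbrain, heart and carcass.

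The genotypes were then compared over all tissues, with 6 litters as pairs and 1 mean difference a litter. The hindbrain libraries enter this comparison too, so it does not stand apart from the first. In 8 of the 10 windows the *Tdg* null value was above the WT value in 6 of 6 litters (exact permutation of signs, two-sided p = 0.0312, adjusted 0.0494), as it was in 12237 of 19340 windows tested (63.3%). *Hes5* had the largest mean difference, 21.8 percentage points, with 30.6, 24.5, 17.5 and 32.3 in the 4 hindbrain litters and 11.4 and 14.4 in the 2 litter pairs of the other tissues. *Hes1* had its larger differences in the litter pairs, with 0, 2.98, 1.49 and 2.24 in the hindbrain litters and 8.70 and 9.32 in those pairs, a positive difference in 5 of 6 (exact sign-flip permutation p = 0.0625). *Dll4* was positive in 4 of 6 (exact sign-flip permutation p = 0.125). Over the members the median difference was 13.3 percentage points, and over all windows 3.87. Divided by the percent of the genome covered, 4 of 10 members were above WT in every litter, beside 5380 of the 19340 windows (27.8%), and their adjusted p was 0.110. The adjusted p of the members above WT in every litter also missed the threshold with peaks of at least 600 bp (0.0628), with the gene body alone (0.0561), with all annotated genes tested (0.0563) and with any litter left out, where 5 litters allow an exact permutation p no smaller than 0.0625.

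The tissues were compared within *Tdg* null embryos, since most windows held no WT peak. Coverage was put on a log2 scale relative to the library (log2 of percent covered plus 1, minus the same for the genome). It was tested with limma over 18131 windows. The added 1 understates the change of sparsely covered windows. The genome term also raises such windows in the tissue whose libraries cover less of the genome. The pathway gene *Hes7*, at 0% in all *Tdg* null hindbrains and carcasses, had 0.77 between these tissues from that term alone. Since hindbrain came from other embryos than heart and carcass, a difference between tissues includes any difference between these embryos and litters, and the 2 cannot be told apart. The 3 contrasts share libraries and are not independent of each other.

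Between *Tdg* null hindbrain and heart 1 of 10 members passed, *Hes5*, which was higher in hindbrain by 1.21 (SE 0.33, 95% interval 0.44 to 1.98, limma adjusted p = 0.0306). Over all windows 2078 (11.5%) were called higher in hindbrain and 3356 (18.5%) higher in heart. *Hes5* was covered at 8.50, 9.14, 4.96 and 8.81 times the genome's percent in the 4 *Tdg* null hindbrains and at 2.16 and 4.08 times in the 2 hearts. The call rested on few libraries: without the 1st *Tdg* null heart the difference was 0.83 (limma adjusted p = 0.161), and it also missed the threshold without hindbrain replicate 1 (0.0570), 2 (0.0665) or 4 (0.0634). It was lost as well without scaling to the library (0.63, limma adjusted p = 0.155) with 10000 bp on each side (0.72, limma adjusted p = 0.131), with the gene body alone (limma adjusted p = 0.0683) and with a pseudocount of 0.1 (limma adjusted p = 0.0548).

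*Hes1* and *Dll4* had the opposite sign, lower in hindbrain than in heart by values of -2.10 (95% interval -4.16 to -0.05, limma adjusted p = 0.107) and -1.61 (-3.03 to -0.18, limma adjusted p = 0.0828), and neither passed. Both passed when only peaks of at least 600 bp were kept. *Hes1* then had -3.17 (limma adjusted p = 0.0059) and *Dll4* -2.28 (limma adjusted p = 0.00146). All *Tdg* null hindbrain peaks of both genes were shorter than 600 bp, so the cut set every hindbrain to 0 and removed their spread. The passes therefore cannot be told apart from the effect of the cut. Relative to the genome, *Hes1* had 0, 1.11, 0.423 and 0.609 in the *Tdg* null hindbrains and 2.58 and 2.66 in the hearts. *Dll4* had 0, 0, 0.704 and 0.675 in the hindbrains and 1.27 and 1.47 in the hearts. The tissues did not overlap for either gene, but the share of all windows with this order was not counted. The other seven members lay between -0.50 (*Notch2*) and 0.95 (*Notch4*), and each of their intervals held 0. The median over all windows was -0.18.

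Between *Tdg* null hindbrain and carcass *Hes5* was again the member that passed, higher in hindbrain by 1.68 (SE 0.33, 95% interval 0.91 to 2.45, limma adjusted p = 0.0322), while 866 windows (4.78%) were called higher in hindbrain and 200 (1.10%) higher in carcass. It missed the threshold without the 1st or 2nd carcass library (limma adjusted p = 0.104 and 0.146), without hindbrain replicates 1, 2 or 4 (0.0626, 0.0758 and 0.0644) without scaling (0.91, limma adjusted p = 0.142), with the gene body alone (limma adjusted p = 0.111) and with a pseudocount of 0.1 (limma adjusted p = 0.0546). *Notch2* and *Jag1* had negative values of -0.72 (95% interval -1.34 to -0.09, limma adjusted p = 0.124) and -0.50 (-0.95 to -0.05, limma adjusted p = 0.131). Both carcasses lay above all 4 hindbrains in percent covered for *Notch1*, *Notch2*, *Dll1* and *Jag1*, before scaling. Both carcasses (5.39% and 7.55%) also covered more of the genome than any *Tdg* null hindbrain (at most 3.67%). The share of all windows with this order was not counted.

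Between *Tdg* null heart and carcass 0 of 10 members passed, where 4569 windows (25.2%) were called higher in heart and 1488 (8.21%) higher in carcass. Before adjustment, limma p lay under 0.05 for 2 of the 10 in this contrast of 2 against 2 libraries, beside 8324 of all windows (45.9%): *Hes1*, with 2.46 (95% interval 0.18 to 4.74, limma adjusted p = 0.0890), and *Dll1*, with -1.12 (-2.05 to -0.19, limma adjusted p = 0.0662). *Dll4* had 1.55 (95% interval -0.03 to 3.13). With peaks of at least 600 bp alone it passed at 3.16 (limma adjusted p = 0.000553), as *Hes1* did at 2.74 (limma adjusted p = 0.0133). That cut removed every *Tdg* null carcass peak of *Dll4*, so its pass cannot be told apart from the effect of the cut. *Hes5* had 0.47 (95% interval -0.38 to 1.32), so heart and carcass were not told apart for it at this number of libraries.

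**Figure D3:**
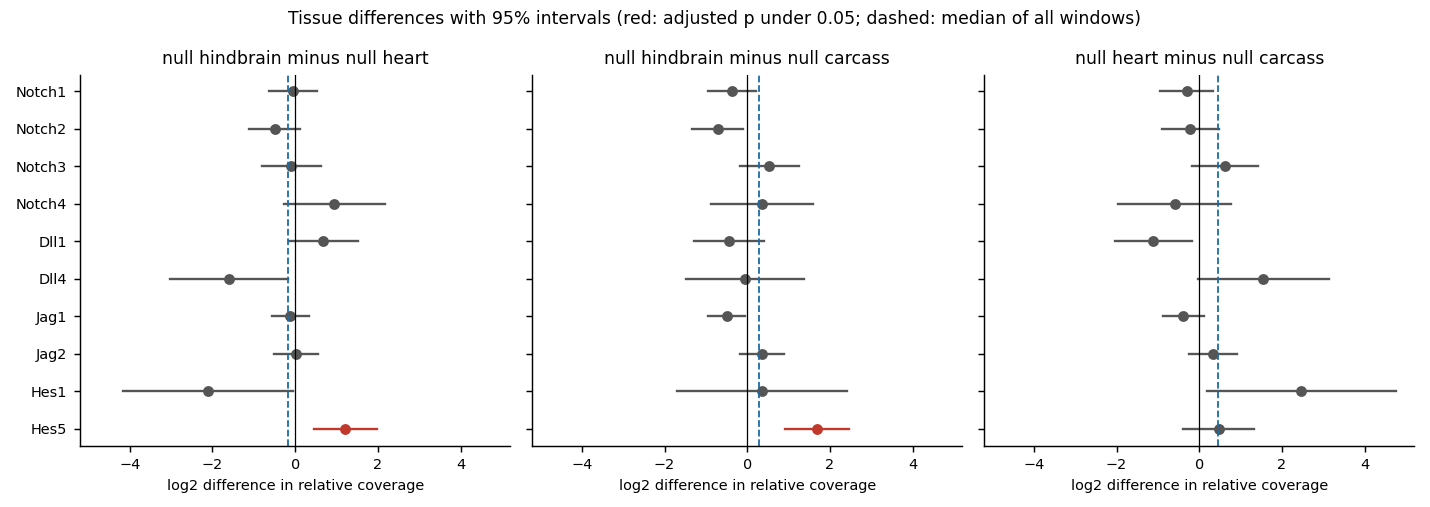
Log2 difference in coverage relative to the library between pairs of *Tdg* null tissues for the 10 genes, with 95% limma intervals, in red where the adjusted p was under 0.05, and the median of all windows as a dashed line. *Hes5* alone is red, at 1.21 and 1.68 in the contrasts of hindbrain with heart and with carcass, and the intervals of *Hes1* are the widest.

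The position of peaks within the windows was then described. Peaks of all 19 libraries formed 128 separate regions in the 10 windows, of which 25 held peaks of all 4 *Tdg* null hindbrains and 8 those of all *Tdg* null hindbrains, hearts and carcasses. Of the 128, 5 were seen in *Tdg* null hindbrain and in no other *Tdg* null tissue (3 in *Notch3*, 1 in *Notch4*, 1 in *Hes1*), 25 in heart alone, 13 in carcass alone, and 29 in a single *Tdg* null library. In 19 regions both *Tdg* null hearts and no *Tdg* null hindbrain had a peak, 11 of them in *Notch2*. Regions were not formed in the windows of other genes, so whether these counts are particular to the members is not known. The 1st *Tdg* null heart (8.09%) and both *Tdg* null carcasses (5.39% and 7.55%) covered more of the genome than any *Tdg* null hindbrain (at most 3.67%), while the 2nd *Tdg* null heart (3.64%) did not, and the part of this in the counts was not tested.

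With bases pooled over the members, introns were the most covered part of the windows in *Tdg* null hindbrain, heart and carcass. Of the 291899 intronic bp, 126324 are of *Notch2* and 48993 of *Notch1*, so these weigh most. *Hes1* and *Hes5* had no intronic base under a peak. In *Tdg* null hindbrain peaks lay over 12.0% of the members' intronic bases, against 4.36% of those of all protein-coding genes, and over 9.52% of coding exon bases, against 6.11%. In carcass the intronic value was 28.7% against 8.70%. The 5000 bp downstream were covered at 9.88% against 3.60% in hindbrain, 14.8% against 7.53% in heart and 14.6% against 5.94% in carcass. The flank from 1000 to 5000 bp upstream stood out in heart, at 18.02% (libraries 11.2% and 24.8%) against 6.25% for all genes, while it was 5.50% against 3.14% in hindbrain, where the bases were those of *Hes5*, *Jag2* and, in 1 library, *Jag1*, and 6.25% against 5.12% in carcass. The 1000 bp before the gene start were covered at 4.67% in hindbrain, against 4.40% for all genes, and all of it was *Notch1*, with 817, 417, 417 and 217 bp in the 4 libraries, while the other nine members were at 0 there.

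**Figure D4:**
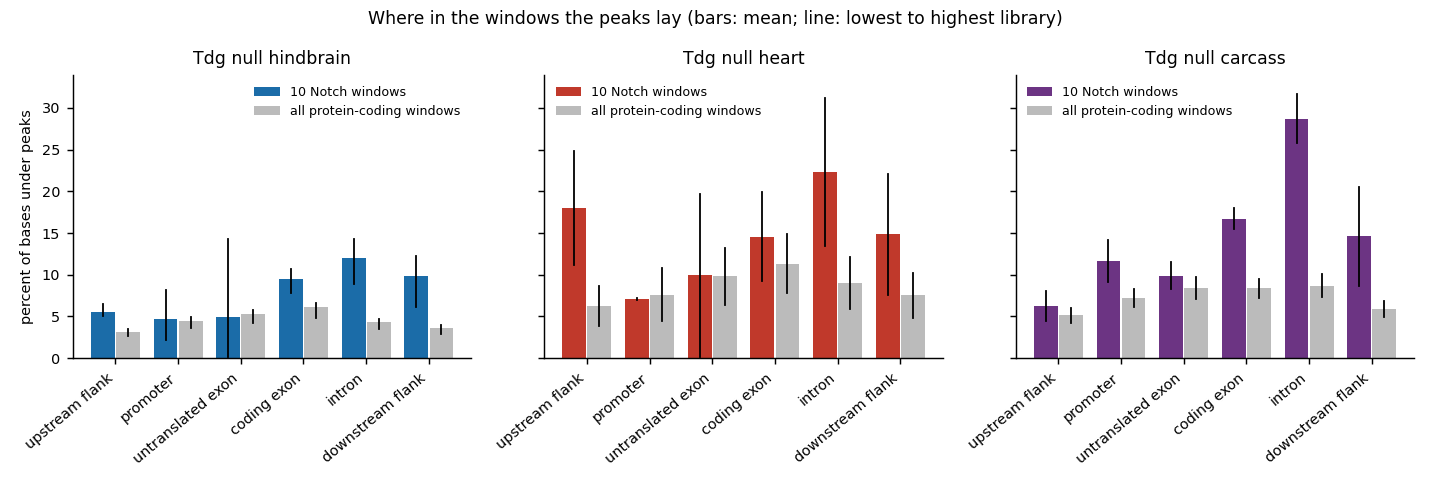
Percent of bases under peaks in each part of the windows, for the 10 genes (colour) and all protein-coding genes (grey), as the mean of the *Tdg* null libraries with a line from the lowest to the highest (4 hindbrains, 2 hearts, 2 carcasses). Bases are pooled over genes, so genes with long introns weigh most there. By difference in percentage points, the 10 genes stand above all genes most in introns in hindbrain and carcass, and in introns and the upstream flank in heart.

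Within 500 bp of the start of a coding transcript, *Notch1* was the only member with a peak in 8 of the 9 *Tdg* null libraries, and *Notch4* joined it in 1 carcass. Of all protein-coding genes, 11.7% to 28.3% had such a peak in these libraries. The *Notch1* region (chr2:26371101-26373100) spans its outermost annotated starts, with promoter, exon and intron bases, and held peaks of all 9 *Tdg* null libraries and of 4 WT libraries: 1 hindbrain, 1 liver and both carcasses. Of the 128 regions this was the one with peaks of the most libraries.

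WT peaks were few. The 10 windows together held between 0 and 9 peaks in a WT library and between 38 and 121 in a *Tdg* null library. WT peaks fell in 24 of the 128 regions, and 23 of these also held a *Tdg* null peak. The exception was a region of 400 bp in the *Jag1* promoter, chr2:136942601-136943000, centred at -420 bp, with peaks of the WT heart and the WT liver of 1 embryo and of no *Tdg* null library. *Jag2* had peaks in both WT hearts, at 3.88% and 1.94% of the window, at different places in the gene, and both regions also held peaks of both *Tdg* null hearts.

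A list of 42 other pathway genes was read in the same way. In hindbrain 30 of the 38 tested had all *Tdg* null libraries above all WT libraries, and 0 the reverse, beside the 70.0% of all windows. Between *Tdg* null hindbrain and heart 5 of the 41 tested were called higher in hindbrain and 11 higher in heart, between hindbrain and carcass 1 and 0, and between heart and carcass 13 higher in heart and 4 higher in carcass. Over all windows the same calls were 11.5% and 18.5%, 4.78% and 1.10%, and 25.2% and 8.21%.

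*Mfng*, a Fringe enzyme that adds sugars to Notch receptors, showed the largest difference on that list. It was covered at 17.4%, 20.3%, 18.5% and 23.5% in *Tdg* null hindbrain, 19.5% and 23.2% in carcass, 2.17% in liver and 0% in both hearts. Its log2 difference was 4.96 between hindbrain and heart (SE 0.31, limma adjusted p = 0.000698) and -4.29 between heart and carcass (SE 0.35, limma adjusted p = 0.000617). *Hes3*, a Hes factor of the neural tube, was also higher in hindbrain than in heart, by 2.93 (limma adjusted p = 0.00746), with 17.2%, 5.10%, 14.7% and 13.4% against 5.10% and 0%.

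*Hes7*, the Hes factor of the somite clock, had the opposite pattern. It was at 0% in all 4 *Tdg* null hindbrains and both carcasses and at 17.6% and 5.86% in the hearts, with differences of -2.92 between hindbrain and heart (limma adjusted p = 0.000795) and 3.68 between heart and carcass (limma adjusted p = 0.000505). *Mib2*, a ubiquitin ligase acting on ligands, had 21.6% and 15.1% in heart against 0%, 0%, 2.04% and 2.45% in hindbrain, and 1.63% and 0% in carcass (heart against carcass 3.74, limma adjusted p = 0.0110). *Adam10*, the protease that cuts the ligand-bound receptor, was the 1 gene of the list called between hindbrain and carcass. It was higher in hindbrain by 1.13 (limma adjusted p = 0.0412), at 1.80% against 1.21% on average. Before scaling the tissues overlapped, with 2.25%, 1.35%, 1.26% and 2.34% in hindbrain and 0.629% and 1.80% in carcass. The genome term is part of the 1.13, as *Hes7*, at 0% in both tissues, had 0.77 in this contrast.

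The list's most covered genes in *Tdg* null hindbrain were *Mfng* (19.9%), *Lfng* (17.7%), another Fringe enzyme, and *Hes6* (16.5%), and only *Hes5* of the members stood above them. In *Tdg* null heart they were *Heyl* (33.8%), a Hes-related target, *Maml3* (29.1%), a coactivator, and *Furin* (26.3%), the protease that matures the receptor, each above the most covered member there, *Jag2* (25.6%). *Heyl* had 55.5% and 12.2% in the 2 hearts, a spread wider than its distance from the members.

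**Figure D5:**
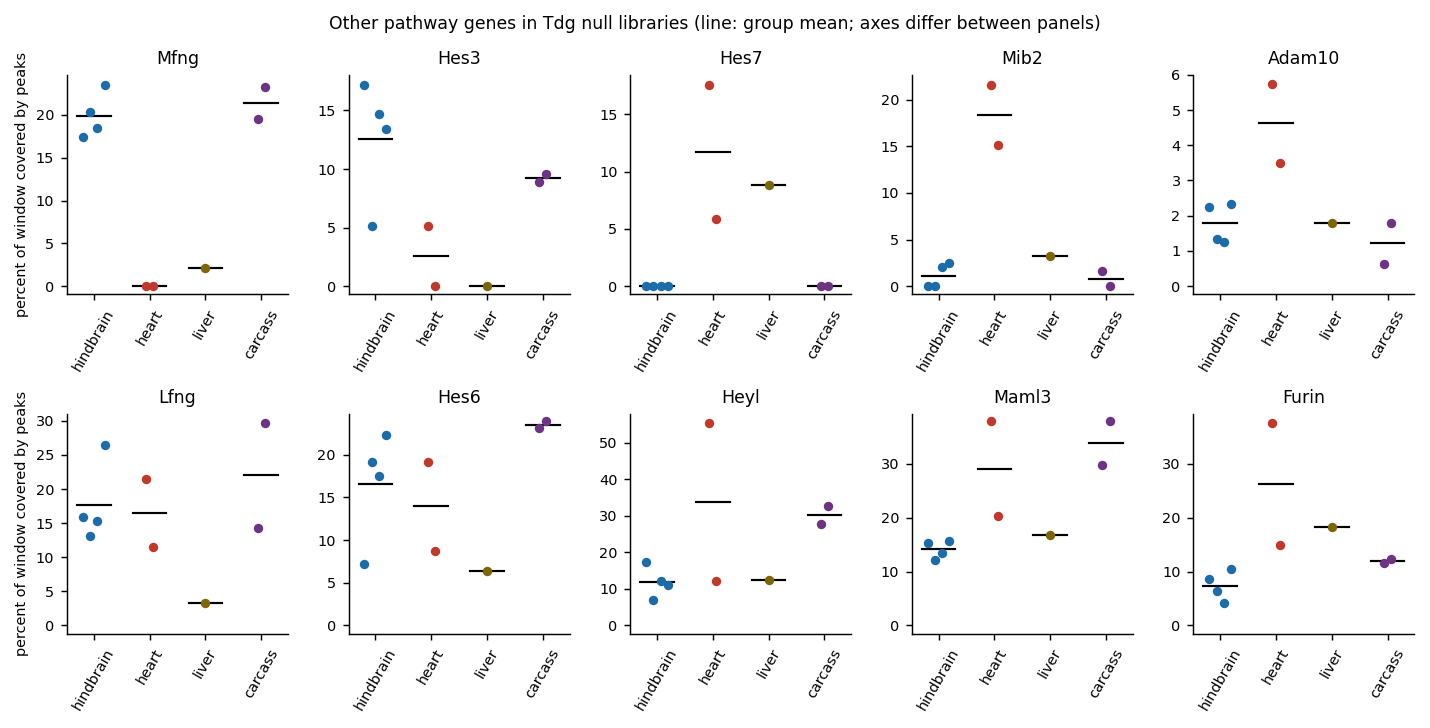
Percent of the window covered in each *Tdg* null library (points) and group mean (line) for the other pathway genes named in the text; the vertical axis differs between panels. *Mfng* is at 0% in both hearts and *Hes7* at 0% in all hindbrains and carcasses.

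The genes whose relative coverage over the 9 *Tdg* null libraries was most like that of a member were found for the 3 most covered members in hindbrain. For *Hes5* they were *Npas1* (Pearson r = 0.973) and *Cul1* (0.949), for *Jag2* *A4galt* (0.993) and *Irg1* (0.986), and for *Jag1* *Pam* (0.960) and *Tnik* (0.941). They are the highest of 18129 windows, and the points share embryos and depth, so these values only name windows of like profile. *Npas1* was covered at 5.39% in *Tdg* null hindbrain, 2.41% in heart and 1.93% in carcass, the same order of tissues as *Hes5* at a lower level. *Cul1* was at 1.36%, 1.63% and 1.09%, so before scaling its heart mean lay above its hindbrain mean, unlike *Hes5*.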

How the data were processed

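Peaks of 5fC pull-down sequencing of genomic DNA were read for 20 libraries of 12 embryos. The authors trimmed reads with Trim Galore, aligned them to NCBIM37 (mm9) with Bowtie2 and called peaks in each library with MACS (SeqMonk, p value cutoff 1e-05, fragment size 200 bp). The deposited values are positions of peaks in bases on a grid of 100 bp, with no count, height or score per peak. Input libraries and the removal of duplicates are not given in the sources used here, and the depth of each library is unknown, so peak coverage follows depth as well as 5fC.

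Windows of GENCODE genes on NCBIM37 (gene body with 5000 bp on each side) were intersected with the merged peaks of 19 libraries in Python 3.11.15 with numpy 2.4.6 and pandas 2.3.3, and figures were drawn with matplotlib 3.10.9. Genotypes were compared by exact permutation (4 against 4 hindbrains) and exact sign flips (6 litters), tissues by limma 3.58.1 in R 4.3.3 on log2 values with a pseudocount of 1 percent, embryo as a random block (consensus correlation 0.0746, estimated on every 10th window) and windows covered in at least 2 libraries. Adjustment was over all windows tested. WT and *Tdg* null embryos were paired through the litter in the labels; deviations of hindbrain littermates from their group means correlated at -0.0583 to 0.0768.

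The members, the list of 42 other pathway genes and the tests were chosen with earlier results of these data known. Named were all members, from the list the 3 most covered genes in *Tdg* null hindbrain and heart and up to 3 called per contrast, the 2 most alike windows of the 3 most covered members, and per member the longest stretch under all 4 *Tdg* null hindbrains and under both *Tdg* null hearts without hindbrain. Alternatives were peaks of at least 600 bp, merging of peaks closer than 200 bp, the gene body alone, 10000 bp on each side, numbers of peaks, scaling or none, pseudocounts of 0.1 and 5, no block or filter, all annotated genes, limma for genotype, a replicate block and each library or litter left out. Leaving out the *Tdg* null liver library was added after the data were seen. On simulated data for 18131 windows, the fit of *Tdg* null hindbrain against heart recovered 66% of 100 windows changed by 2 on the log2 scale and 13% of 100 changed by 1. The changed windows were drawn from those with a mean of at least 5% covered, and noise was independent between libraries. These rates therefore do not apply to sparser windows. Promoter sequences of a later assembly were not used here.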

Additional observations from a re-analysis of the deposited data

Results flagged for a closer look

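The *Notch2* window in the *Tdg* null hindbrain of litter O stood apart from its group, at 5.65% covered against 13.2%, 12.0% and 13.3% in the other three libraries (its gap to the nearest value, over the range of the group, exceeded Dixon's critical value for 4 samples). About 1 in 20 groups passes this by chance. The same library had the lowest coverage of the genome among the *Tdg* null hindbrains (2.68%), and its part in the value was not tested. Without it, all 3 remaining *Tdg* null hindbrains lay above all WT hindbrains for *Notch2*.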

How the results depend on the processing

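The count of members separated between genotypes in hindbrain was 8 in the report and 6 to 9 under the alternatives. Leaving out each library in turn gave 8 to 9. Of all windows, 8102 of 17588 separated after division by the percent of the genome covered, the setting with 6. With 9 members, 12875 of 17108 separated without *Tdg* null hindbrain replicate 1, and limma called 14261 of 17588. Apart from limma, the member counts are of separated members. Their adjusted p was under 0.05 in the report (0.0408) and missed it without any 1 WT hindbrain (0.0507 to 0.0831) and after division by the percent of the genome covered (0.0606), where 0 of all windows passed either. In the paired test with litter as a replicate block, the same 8 were higher in 4 of 4 pairs, but its smallest possible exact permutation p is 0.125 (0.175 adjusted), so none passed. Over 6 litters the count was 8, and 4 after division by the percent of the genome covered. With a litter left out it was 8 to 9. The 9 came without litter A, where 12676 of 19340 windows were above WT in each remaining litter. Over litters no member passed after adjustment (exact sign-flip permutation) with peaks of at least 600 bp (0.0628), the gene body alone (0.0561), all annotated genes (0.0563), that division (0.110) or a litter left out (0.0931 to 0.0981). After division *Notch2* turned sign, at -0.65 in hindbrain and -0.24 over litters.

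Between tissues the number of members called, 1, 1 and 0 in the report, changed with the settings. For hindbrain against heart it was 3 with peaks of at least 600 bp, with 10000 bp flanks and with a pseudocount of 5, 0 without scaling and with a pseudocount of 0.1, and 0 to 2 with a library left out. For hindbrain against carcass it was 0 with the gene body alone, without scaling and with a pseudocount of 0.1, 3 with a pseudocount of 5, and 0 to 1 with a library left out. For heart against carcass it was 2 with peaks of at least 600 bp, 1 with the gene body alone, 3 with 10000 bp flanks and with a pseudocount of 5, and 0 to 1 with a library left out. Calls over all windows moved too. Hindbrain against heart had 1518 higher and 3288 lower of 15967 (600 bp), and 2524 and 3654 of 19057 (10000 bp). With a pseudocount of 5 it had 2303 and 4411 of 18131, and hindbrain against carcass 2041 and 759. Heart against carcass had 3815 higher and 1333 lower (600 bp), 3840 and 1202 of 15550 (gene body), and 5582 and 1780 (10000 bp). With a pseudocount of 5 it had 5154 and 1468. Without scaling, the median of all windows moved from -0.18 to -0.76, from 0.28 to -0.48 and from 0.44 to 0.26 in the 3 contrasts.

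Differences that missed the threshold in the report changed sign as follows. Hindbrain against heart, *Notch1*: 0.0049 (600 bp), 0.058 (10000 bp), 0.029 (pseudocount 0.1), -0.39 to 0.29 (a library left out). *Notch3*: 0.069 (gene body), -0.19 to 0.13 (left out). *Notch4*: -0.028 (10000 bp), -0.011 to 1.91 (left out). *Jag1*: 0.067 (600 bp), -0.26 to 0.024 (left out). *Jag2*: -0.046 (600 bp), -0.27 (gene body), -0.56 (no scaling), -0.12 (pseudocount 5), -0.095 to 0.12 (left out). Hindbrain against carcass, without scaling, gave -0.24 for *Notch3*, -0.41 for *Notch4*, -0.41 for *Jag2* and -0.41 for *Hes1*. *Dll4* there had 0.89 (600 bp), 0.11 (10000 bp), 0.15 (pseudocount 5) and -0.57 to 0.46 (left out). At 600 bp it had no peak left in either tissue, so the 0.89 is the genome term alone. *Hes1* had -0.43 (600 bp), -0.72 (10000 bp) and -1.09 to 1.81 (left out). Heart against carcass, *Notch1* ran from -0.65 to 0.033 (left out) and *Notch4* had 0.33 (10000 bp) and -1.56 to 0.37 (left out). A tissue left with 1 library was assumed to vary like the others. The cause was not tested.

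Peaks without heights or read counts limit all values, heart and carcass rest on 2 libraries and *Tdg* null liver on 1, and the liver library included or left out changed no member's call.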
